A study of Sus scrofa with 18 samples.

Results

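The transcription factors that define macrophages as a cell type were followed as a group of 8 genes, SPI1, CEBPA, CEBPB, MAF, PPARG, KLF4, BHLHE40 and BHLHE41, in alveolar macrophages of the pig. They were chosen by name, as the 8 of 30686 rows of the deposited count table that carry these symbols, and each symbol stood on 1 row. All 8 were among the 13592 genes with enough reads to be tested. Alveolar macrophages, the resident phagocytes of the airspaces, came from the lungs of healthy Danish Landrace-Yorkshire pigs and were kept ex vivo for 24 hours. The control cells received no addition. The other cells received poly I:C, a synthetic double-stranded RNA used to imitate viral RNA, or Bacillus subtilis, or Enterococcus faecium, or poly I:C together with either bacterium. Each of the 6 treatments has 3 libraries, labelled pig 1 to pig 3, which makes 18 libraries of bulk RNA. Neither age nor dose, strain or viability of the bacteria is given in the sources used here.

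A macrophage keeps its identity through a small set of transcription factors that bind the enhancers of myeloid genes together. PU.1, the product of SPI1, opens these enhancers, C/EBP factors bind beside it, and factors induced by the tissue add the programme of the organ. In the mouse lung, GM-CSF and TGF-beta induce PPARG, which alveolar macrophages need to develop and to handle surfactant lipid, while MAF promotes the resident programme of other tissues and restrains self-renewal.

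Levels are in CPM, the counts of a gene per megacount (M) of its library after TMM scaling, which sets the typical gene equal between libraries. Library totals ran from 16.3 to 27.3 M, and the TMM factors from 0.665 to 1.38, with all 3 control libraries between 1.27 and 1.33 and the 3 libraries of B. subtilis plus poly I:C between 0.665 and 0.863. The 11 alveolar macrophage markers were all detected and summed to between 5140 and 11600 CPM per library, led by LGALS3, CD9, ITGAX and CD68. The scavenger receptor MARCO (6.61 to 189 CPM) and the lipid carrier FABP4 (0.827 to 5.86 CPM) were the lowest of the 11 in median. Monocyte markers, all 7 of 7 detected, summed to between 1290 and 9310 CPM, mostly from S100A8, S100A9 and S100A12. Dendritic cell markers summed to at most 189 CPM, lymphocyte markers to at most 510 CPM, neutrophil and mast cell markers to at most 130 CPM, epithelial markers to at most 391 CPM, endothelial and fibroblast markers to at most 8.96 CPM and erythrocyte markers to at most 22.7 CPM. CLEC10A, MPO, CPA3 and CDH5 had a count of 0 in all 18 libraries. With bulk RNA, fewer cells of a type and less RNA per cell cannot be told apart.

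The pig numbers of the labels described only in part how the libraries resembled each other. Over the genes other than the 8 factors, the libraries were sorted into 3 sets of 6, here A, B and C. The search allowed only sets with 1 library of every treatment, so that form was imposed. It took the sorting with the highest mean correlation of deviations from the treatment mean. This mean was 0.616, against 0.451 for the second best sorting and 0.0225 for the pig numbers. Every one of the 18 libraries was closer to all 5 others of its set than to any library of another set and another treatment. Libraries of the same treatment were not compared with each other. Correlations of deviations from the treatment mean lay between 0.412 and 0.797 within sets, against a median of -0.243 between libraries with the same pig number. The values within sets are those that the search made as high as possible. Taking set A as pig 1, B as pig 2 and C as pig 3, the label of 8 of 18 libraries disagreed. These all belonged to B. subtilis, E. faecium and E. faecium plus poly I:C. In control, poly I:C and B. subtilis plus poly I:C the sets and the pig numbers paired the libraries in the same way. The sets are a description of these libraries and their origin is not given. Values below are listed in the order of sets A, B and C, and calls are given first without a block. A fit with the sets as a block is set beside them where it changes a call of a member or a count of a list. The block rests on sets that were found in these same libraries, over genes other than the members.

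BHLHE40, CEBPB and SPI1 rose and CEBPA and MAF fell against control in at least 1 treatment, while PPARG, KLF4 and BHLHE41 passed in none without a block. In all, 11 of the 40 tests of a member against control passed at an adjusted p of 0.05, with 8 rises and 3 falls. Poly I:C raised 2 and lowered 1 of 8 members, where 22.4% of all genes tested passed, 12.9% higher and 9.51% lower. B. subtilis raised 1 of 8, with 4.37% of all genes passing, 2.69% higher and 1.68% lower. E. faecium changed 0 of 8, with 0% of all genes. B. subtilis plus poly I:C raised 3 and lowered 2, with 35.4% of all genes passing, 18.9% higher and 16.6% lower. E. faecium plus poly I:C raised 2 and lowered 0, with 23.1% of all genes passing, 13.2% higher and 9.85% lower. Whether the members differ from these backgrounds was not tested.

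With library set as a block, 21 of 40 tests passed, and the share of all genes passing rose to 41.6%, 18.3%, 0%, 54.5% and 42.7% in the same order of treatments. The median log2 fold change of the 8 members was -0.12, 0.24, 0.10, -0.06 and 0.12, against -0.01, -0.02, 0, -0.02 and -0.05 over all genes. Counted by overlap, 3 members lay wholly above and 2 wholly below control with poly I:C, where 19.4% and 19.2% of all genes did so. For B. subtilis it was 2 and 2 members (13% and 14.3% of all genes), for E. faecium 0 and 0 (1.76% and 2.18%), for B. subtilis plus poly I:C 3 and 2 (19.8% and 21.6%), and for E. faecium plus poly I:C 3 and 2 (22.5% and 21.1%). P-values measure the spread between these libraries.

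**Figure D1:**
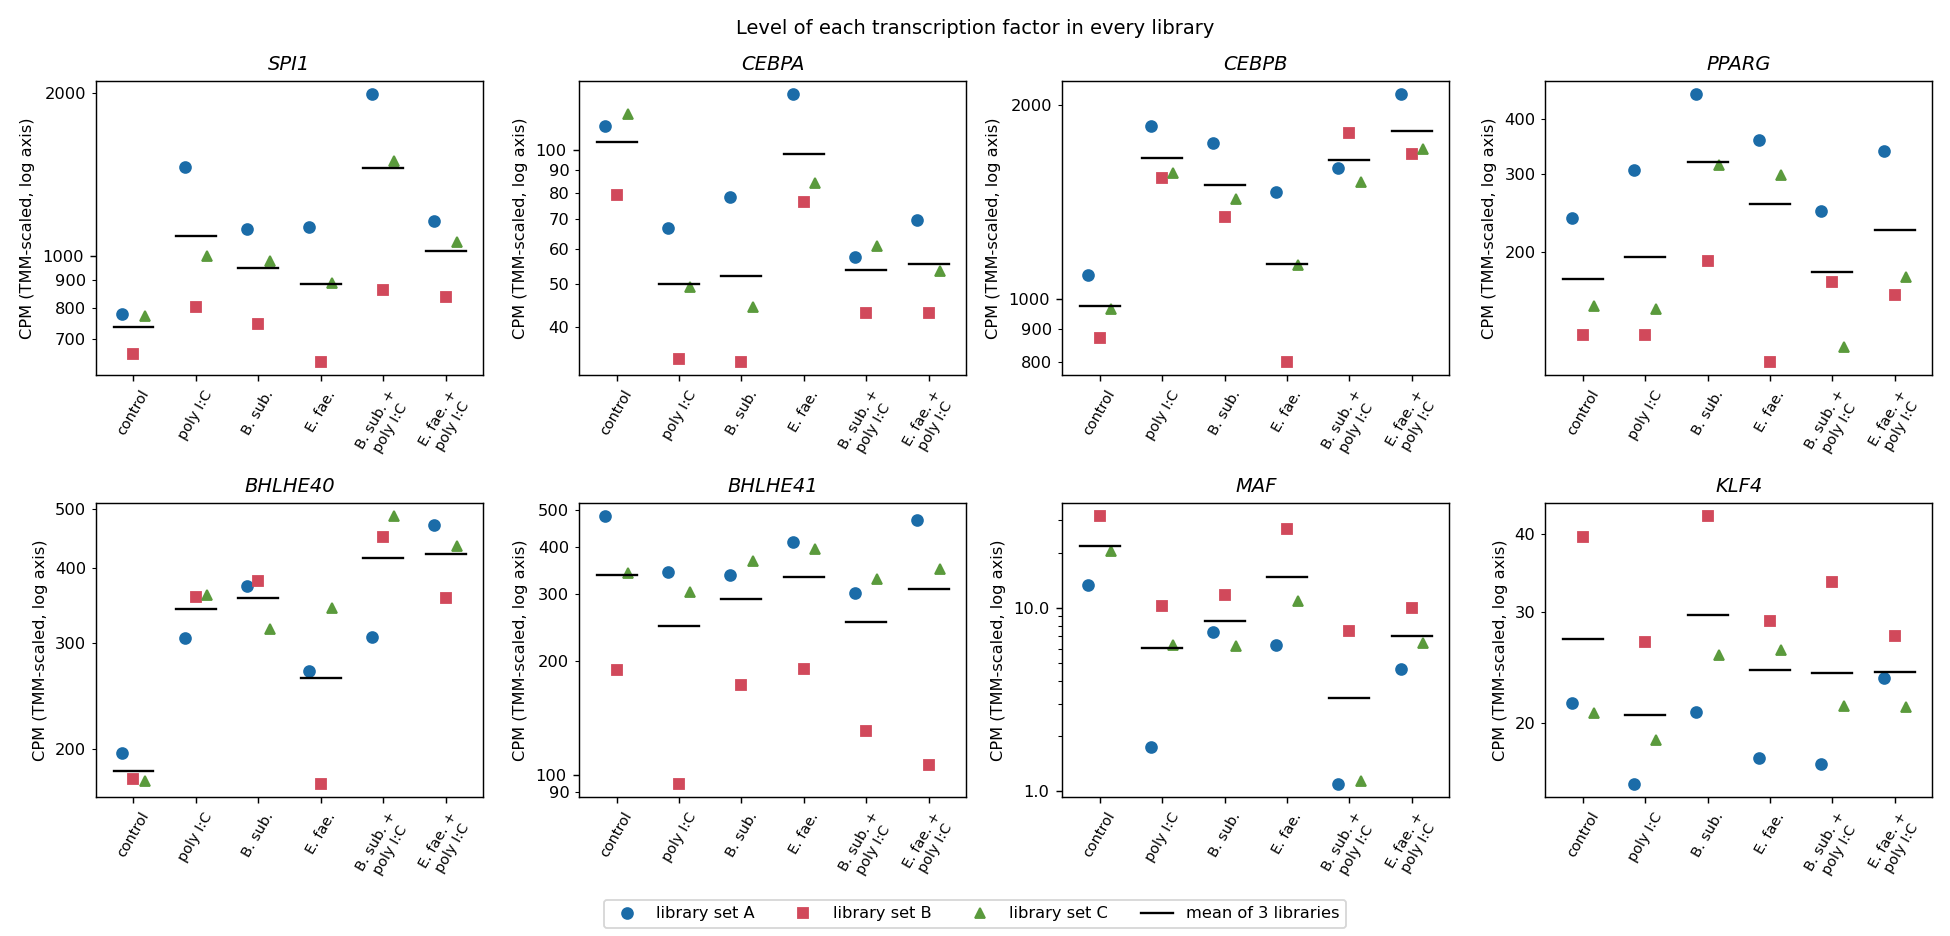
Level of each factor in every library, in TMM-scaled CPM on a log axis, by treatment; symbols mark the library sets A, B and C and bars the mean of 3 libraries. BHLHE40 lay between 177 and 197 CPM in control and at 306 CPM or above in every library with poly I:C, while MAF was highest in set B in all 6 treatments.

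**Figure D2:**
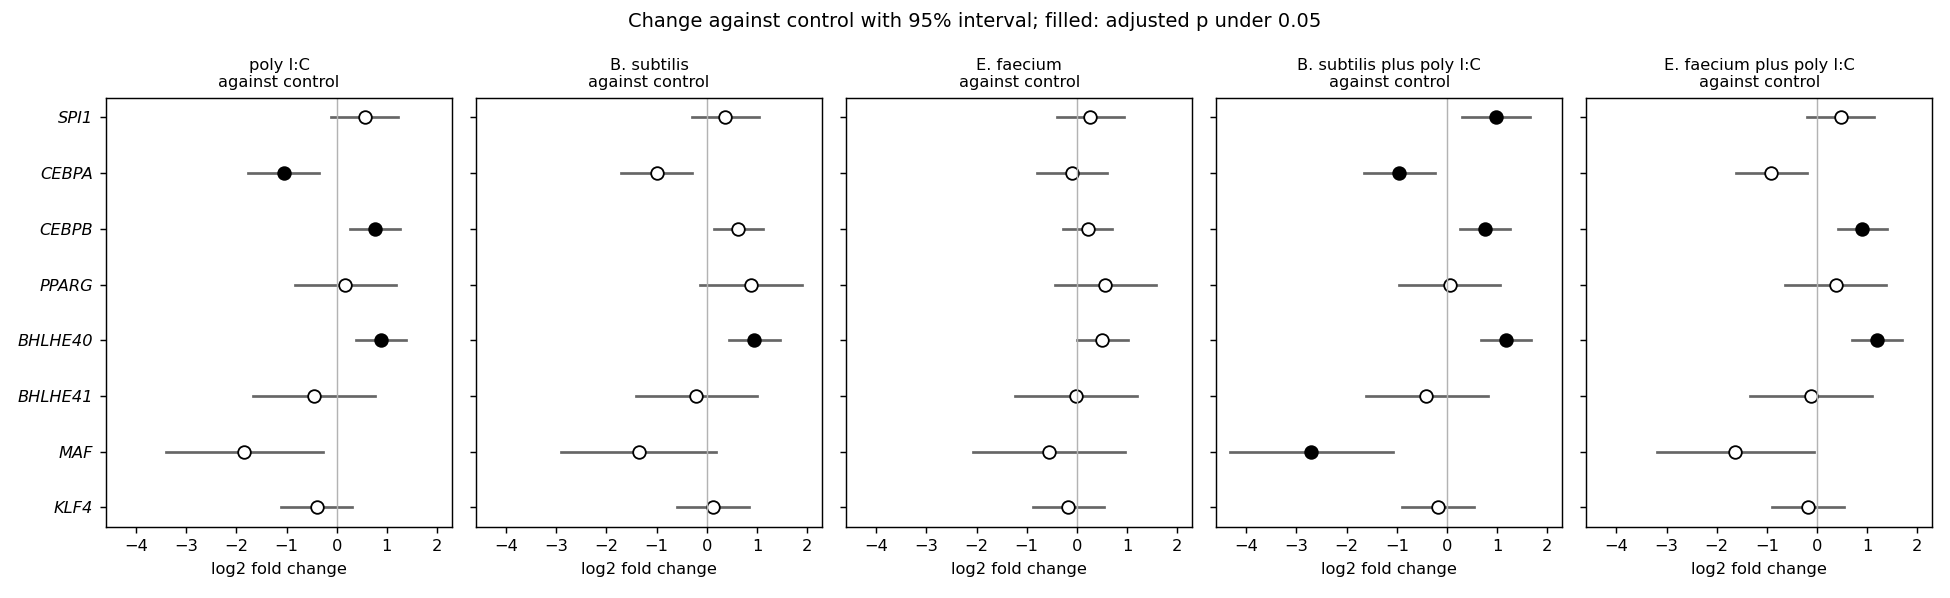
Log2 fold change of each factor against control in the 5 treatments, with its 95% interval; filled symbols passed at an adjusted p of 0.05. Filled symbols to the right are BHLHE40, CEBPB and SPI1, those to the left CEBPA and MAF, and E. faecium has none.

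The direction of several of these changes is relative to the typical gene. Without TMM factors, on plain library totals, the median gene shifted by -0.54 log2 units under poly I:C, -0.33 under B. subtilis, -0.11 under E. faecium, -0.82 with B. subtilis plus poly I:C and -0.57 with E. faecium plus poly I:C. The split of all genes called with poly I:C went from 1752 higher and 1293 lower to 952 higher and 3834 lower. For B. subtilis it went from 366 and 228 to 259 and 788, for B. subtilis plus poly I:C from 2564 and 2254 to 957 and 6137, and for E. faecium plus poly I:C from 1796 and 1339 to 988 and 4058. On this scale 7 of the 8 rises of members no longer passed, the exception being BHLHE40 with E. faecium plus poly I:C. All 3 falls also passed there and were larger, and 4 more falls passed. CEBPA fell there by 1.31 with B. subtilis (adjusted p = 0.0181) and by 1.44 with E. faecium plus poly I:C (adjusted p = 0.0023), and MAF by 2.35 with poly I:C (adjusted p = 0.0369) and by 2.15 with E. faecium plus poly I:C (adjusted p = 0.0484). On unscaled totals the members therefore had 1 rise and 7 falls against control. A rise below therefore means a rise against the median gene. Which scale is nearer to RNA per cell was not tested.

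**Figure D3:**
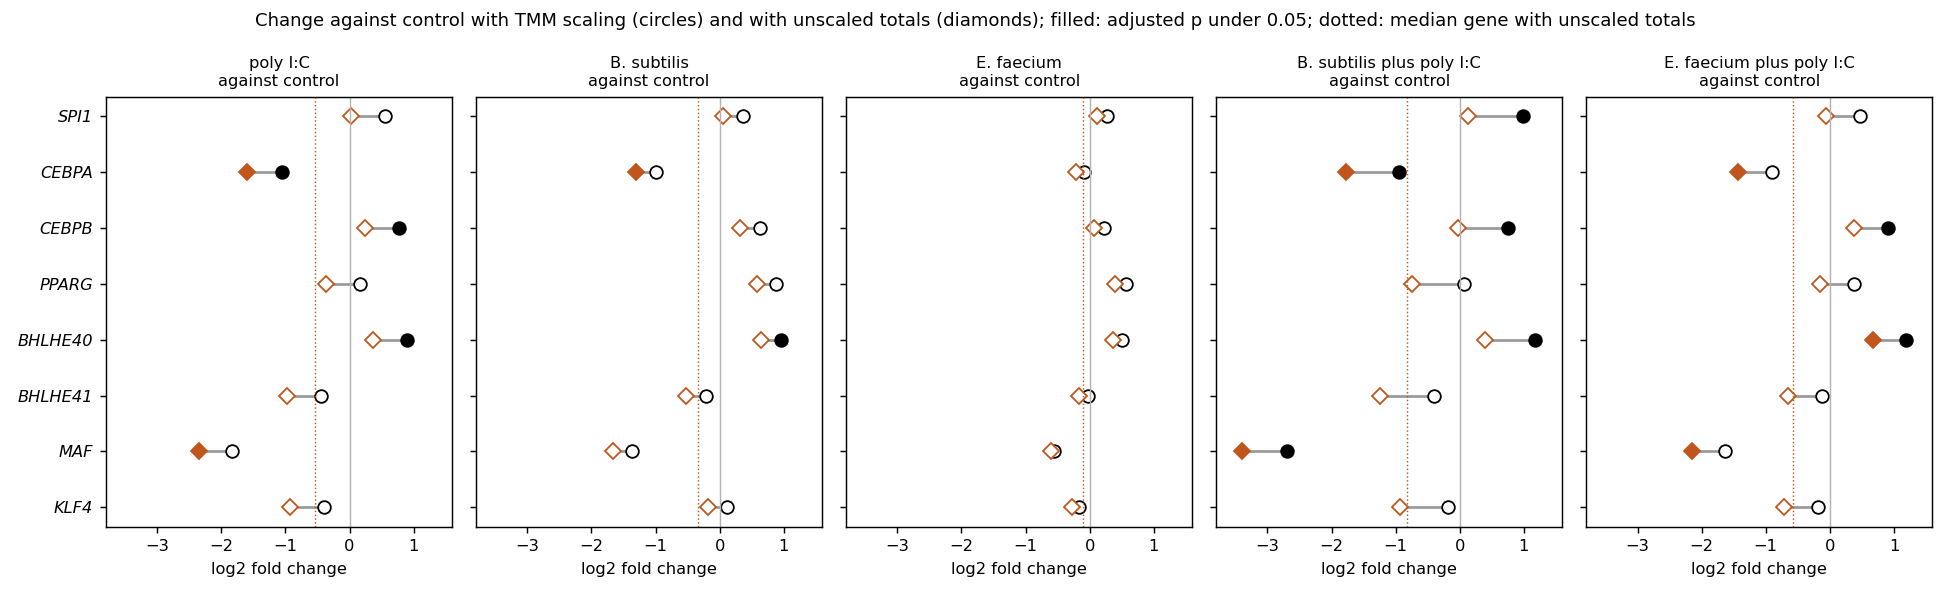
Log2 fold change of each factor against control with TMM scaling (circles) and with unscaled totals (diamonds); filled symbols passed, and the dotted line is the median gene on unscaled totals. Diamonds lie left of circles for all 8 factors, by a distance near the shift of the median gene.

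SPI1 encodes PU.1, the ETS-family factor that specifies myeloid cells and opens macrophage enhancers (gene ID 414912, chromosome 2, 15227850 to 15245679, Sscrofa11.1). It measured 779, 656 and 774 CPM in control. With poly I:C it measured 1460, 803 and 999 CPM, and with B. subtilis plus poly I:C 1990, 863 and 1500 CPM. All libraries of both treatments lay above every control library, set A highest and set B lowest each time. The other treatments gave 1120, 746 and 978 CPM with B. subtilis, 1130, 636 and 890 CPM with E. faecium, and 1160, 837 and 1060 CPM with E. faecium plus poly I:C. Only this last treatment of the 3 lay wholly above control. SPI1 rose with B. subtilis plus poly I:C by 0.98 log2 units (SE 0.32, adjusted p = 0.0257), a 1.97-fold change relative to the typical gene, and on unscaled totals the change was 0.13 (adjusted p = 0.684). That call was lost without any 1 of 5 libraries, which were control 1, 2 and 3 and B. subtilis plus poly I:C 1 and 3, with adjusted p up to 0.122. With poly I:C alone the change was 0.56 (SE 0.32, adjusted p = 0.229), and with the set block 0.51 (adjusted p = 0.0241). With E. faecium plus poly I:C it was 0.47 (adjusted p = 0.322), and with the set block 0.45 (adjusted p = 0.0424).

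The 2 C/EBP factors went in opposite directions with poly I:C. CEBPA, which supports myeloid commitment and restrains proliferation (397307, chromosome 6, 43083200 to 43085884), measured 113, 79.1 and 120 CPM in control. With poly I:C it measured 66.8, 33.9 and 49.2 CPM, and with B. subtilis 78.3, 33.5 and 44.5 CPM. All 6 of these libraries lay below the lowest control library. E. faecium gave 133, 76.4 and 84 CPM, which overlapped control. B. subtilis plus poly I:C gave 57.4, 43.1 and 61 CPM, and E. faecium plus poly I:C 69.6, 43 and 53.6 CPM, all below control. In the order of treatment means, the neighbours E. faecium and E. faecium plus poly I:C did not overlap for CEBPA. All other neighbours overlapped, for CEBPA and for each other member.

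CEBPA fell by 1.06 log2 units with poly I:C (SE 0.33, adjusted p = 0.032), 2.08-fold, and by 0.95 with B. subtilis plus poly I:C (SE 0.33, adjusted p = 0.0359). The change was -1 with B. subtilis (SE 0.33, adjusted p = 0.115) and -0.91 with E. faecium plus poly I:C (SE 0.33, adjusted p = 0.0603). Both of the last passed with pig number as a block (adjusted p = 0.0462 and 0.0251) and with library set as a block (adjusted p = 0.00063 and 0.000499). The call with poly I:C was lost without any 1 of control 1, control 3, poly I:C 2 and poly I:C 3 (adjusted p up to 0.124). The call with B. subtilis plus poly I:C was lost without control 1, control 3 or any 1 of its own 3 libraries (adjusted p up to 0.111). CEBPA was lower than control within each of the 3 sets in 4 of the 5 treatments, E. faecium being the exception.

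CEBPB, a C/EBP factor induced by inflammatory signals that drives cytokine genes (397360, chromosome 17, 51722633 to 51723673), measured 1090, 870 and 965 CPM in control. With poly I:C it measured 1860, 1540 and 1570 CPM, and with E. faecium plus poly I:C 2080, 1680 and 1710 CPM. Every library of both treatments exceeded the highest control. B. subtilis gave 1750, 1340 and 1430 CPM, and B. subtilis plus poly I:C 1600, 1810 and 1520 CPM. These 6 libraries were also above control. E. faecium gave 1470, 800 and 1130 CPM, on both sides of control.

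CEBPB rose by 0.77 log2 units with poly I:C (SE 0.23, adjusted p = 0.0264), by 0.75 with B. subtilis plus poly I:C (SE 0.23, adjusted p = 0.0192) and by 0.90 with E. faecium plus poly I:C (SE 0.23, adjusted p = 0.0106), relative to the typical gene. On unscaled totals these changes were 0.24, -0.03 and 0.38 (adjusted p = 0.389, 0.906 and 0.161), so the second changed sign. With B. subtilis the change was 0.63 (adjusted p = 0.155), and with the set block it passed at the same size (adjusted p = 0.0183). The call with poly I:C was lost without any 1 of control 2, control 3, poly I:C 1 and poly I:C 3 (adjusted p up to 0.0898), that with B. subtilis plus poly I:C without control 2 or control 3 (adjusted p up to 0.0695), while that with E. faecium plus poly I:C held without each single library (adjusted p up to 0.0497).

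Of the basic helix-loop-helix repressors, BHLHE40 rose and BHLHE41 passed in no treatment without a block. In mice the 2 factors together maintain alveolar macrophage identity and self-renewal. BHLHE40 (100514873, chromosome 13, 61526121 to 61533686) measured 197, 178 and 177 CPM in control. With poly I:C it measured 306, 357 and 360 CPM, and with B. subtilis 373, 380 and 317 CPM. B. subtilis plus poly I:C gave 307, 450 and 487 CPM. All of these libraries lay above every control library. E. faecium plus poly I:C gave 472, 356 and 435 CPM, all above control, and E. faecium 269, 175 and 343 CPM, of which set B lay below control.

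BHLHE40 rose by 0.89 log2 units with poly I:C (SE 0.24, adjusted p = 0.0135), 0.95 with B. subtilis (SE 0.24, adjusted p = 0.032), 1.17 with B. subtilis plus poly I:C (SE 0.24, adjusted p = 0.00159) and 1.19 with E. faecium plus poly I:C (SE 0.24, adjusted p = 0.00208), relative to the typical gene. These are 4 of the 5 treatments. With the set block CEBPA, CEBPB and MAF also passed in 4 each, and on unscaled totals CEBPA passed in 4 and BHLHE40 in 1. On unscaled totals the changes stayed positive and the first 3 no longer passed, at 0.37, 0.65 and 0.39 (adjusted p = 0.23, 0.102 and 0.171). E. faecium gave 0.51 (SE 0.24, adjusted p = 1). The call with B. subtilis was lost without any 1 of its own 3 libraries or of the 3 control libraries (adjusted p up to 0.136), and that with poly I:C without control 3 (adjusted p = 0.054). In both combined treatments it held without each single library.

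BHLHE41 (100626912, chromosome 5, 47687662 to 47692761) measured 481, 189 and 340 CPM in control and 342, 94.6 and 304 CPM with poly I:C. Set B was the lowest of the 3 in all 6 treatments, between 94.6 and 190 CPM, while sets A and C lay between 302 and 481 CPM. The change with poly I:C was -0.45 (SE 0.57, 95% interval -1.66 to 0.77, adjusted p = 0.627), and with the set block -0.55 (SE 0.2, adjusted p = 0.0423). The other 4 changes against control lay between -0.41 and -0.02.

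MAF, which promotes resident and regulatory macrophage genes such as those of complement C1q and IL10 (106510466, chromosome 6, 8468736 to 8910012), measured 13.3, 31.5 and 20.5 CPM in control. With poly I:C it measured 1.75, 10.2 and 6.26 CPM, and with B. subtilis plus poly I:C 1.1, 7.49 and 1.14 CPM. All 6 libraries lay below control, and sets A and C of the combined treatment had 12 and 15 counts of MAF. B. subtilis gave 7.37, 11.8 and 6.23 CPM, and E. faecium plus poly I:C 4.66, 9.92 and 6.46 CPM, also all below control. E. faecium gave 6.27, 26.8 and 10.9 CPM, which overlapped control but was lower in each set.

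MAF fell by 2.70 log2 units with B. subtilis plus poly I:C (SE 0.77, adjusted p = 0.0129), 6.5-fold, the largest of the 11 called changes. That call was lost without library 1 or library 3 of the treatment (adjusted p up to 0.0612), and without library 2 the change was -4.27. The other changes were -1.84 with poly I:C (SE 0.74, adjusted p = 0.0887), -1.36 with B. subtilis (SE 0.73, adjusted p = 0.373) and -1.63 with E. faecium plus poly I:C (SE 0.73, adjusted p = 0.125). With the set block they were -1.97, -1.3 and -1.62 and passed (adjusted p = 0.000547, 0.0186 and 0.00196). Poly I:C also passed with pig number as a block (adjusted p = 0.0473). Monocyte markers summed to between 5560 and 7850 CPM with B. subtilis, and to between 3710 and 9310 CPM with B. subtilis plus poly I:C, against 1320 to 3440 CPM in control. The other treatments overlapped control: 1290 to 5940 CPM with poly I:C, 1960 to 3110 with E. faecium and 1390 to 4830 with E. faecium plus poly I:C. Of the 7 markers, 0 passed with B. subtilis and 1 rose with B. subtilis plus poly I:C (S100A12, by 1.32, adjusted p = 0.0483). That rise was 0.49 on unscaled totals and did not pass (adjusted p = 0.402). With the set block 4 of 7 rose in each of these treatments, S100A8, S100A9 and S100A12 in both, VCAN with B. subtilis and FCN1 with the combination. In that fit 18.3% and 54.5% of all genes passed, in either direction. With poly I:C, E. faecium and E. faecium plus poly I:C 0 of 7 monocyte markers passed in either fit. Of the 11 alveolar macrophage markers, 0 rose and 1 fell with B. subtilis, or 0 and 5 with the set block, and 1 rose and 1 fell with B. subtilis plus poly I:C, or 2 and 2 with the set block. Poly I:C gave 1 and 0, or 2 and 3 with the set block, and E. faecium plus poly I:C 1 and 0, or 2 and 2. Their part in the changes of MAF, CEBPA and BHLHE40 was not tested.

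PPARG, the lipid-sensing nuclear receptor of alveolar macrophages (397671, chromosome 13, 68301566 to 68433951), measured 239, 130 and 151 CPM in control and 454, 191 and 315 CPM with B. subtilis. It was higher with B. subtilis in each of the 3 sets, although the groups overlapped, and the change was 0.88 (SE 0.47, adjusted p = 0.375), or 0.85 with the set block (SE 0.24, adjusted p = 0.0244). Poly I:C gave 307, 130 and 149 CPM, and the change was 0.17 (95% interval -0.83 to 1.18). Set A was highest in all 6 treatments, between 239 and 454 CPM. KLF4, a zinc finger factor of monocyte differentiation that in mice acts in alternative activation (595111, chromosome 1, 248604817 to 248609574), measured 21.5, 39.5 and 20.7 CPM in control. Its changes lay between -0.4 and 0.12, none passed with or without the set block, and set B was highest in all 6 treatments, between 26.9 and 42.6 CPM.

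Adding a bacterium to poly I:C changed 0 of 8 members against poly I:C alone, with 0% of all genes called for either bacterium. At an unadjusted p under 0.05, edgeR counted 0 of 8 members in both comparisons, and 1412 and 36 of all genes, while DESeq2 called 2 and 0 genes and 0 members. E. faecium against control, also with 0 calls, had 1 member (BHLHE40) and 278 genes at an unadjusted p under 0.05, and 31 genes and 0 members by DESeq2. The interaction asks whether poly I:C alters the effect of a bacterium, and it called 0 members for B. subtilis, with 0.0368% of all genes, and 0 for E. faecium, with 0%. Unadjusted, 1 member (CEBPA) and 1211 genes reached 0.05 for B. subtilis, and 0 members and 93 genes for E. faecium, while DESeq2 called 113 and 0 genes and 0 members. For CEBPA and B. subtilis it was 1.11 (SE 0.47, 95% interval 0.11 to 2.1, adjusted p = 0.537), and with the set block 1.22 (adjusted p = 0.0164, with 3.72% of all genes called). Mean CEBPA was 50 CPM under poly I:C, 52.1 under B. subtilis and 53.8 under both (SD 16.5, 23.4 and 9.48, n = 3), against 104 in control (SD 22).

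The libraries also differed between sets within a treatment, and the members divided in how much. The share of variance (log2 CPM) that lay between library sets was 84% for BHLHE41, 69.9% for KLF4, 59.4% for PPARG and 46.9% for SPI1, against a median of 23.9% over all genes tested. CEBPA and MAF lay between, at 30.2% and 29.8%, with treatment taking 62.4% and 60.4%. CEBPB and BHLHE40 were the least set-bound, at 13.2% and 2.67%, with treatment taking 75.3% and 77.4%. The median share of treatment over all genes tested was 48%. Set B was the lowest of the 3 in all 6 treatments for SPI1, CEBPA and BHLHE41, and the highest in all 6 for MAF and KLF4. In set B the alveolar macrophage markers summed to a median of 6640 CPM, against 10300 in A and 9280 in C. Epithelial markers in set B summed to between 124 and 391 CPM, against at most 134 elsewhere, almost all from EPCAM, while keratin and surfactant genes were at or near 0. The part of these markers in the set differences was not tested.

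**Figure D4:**
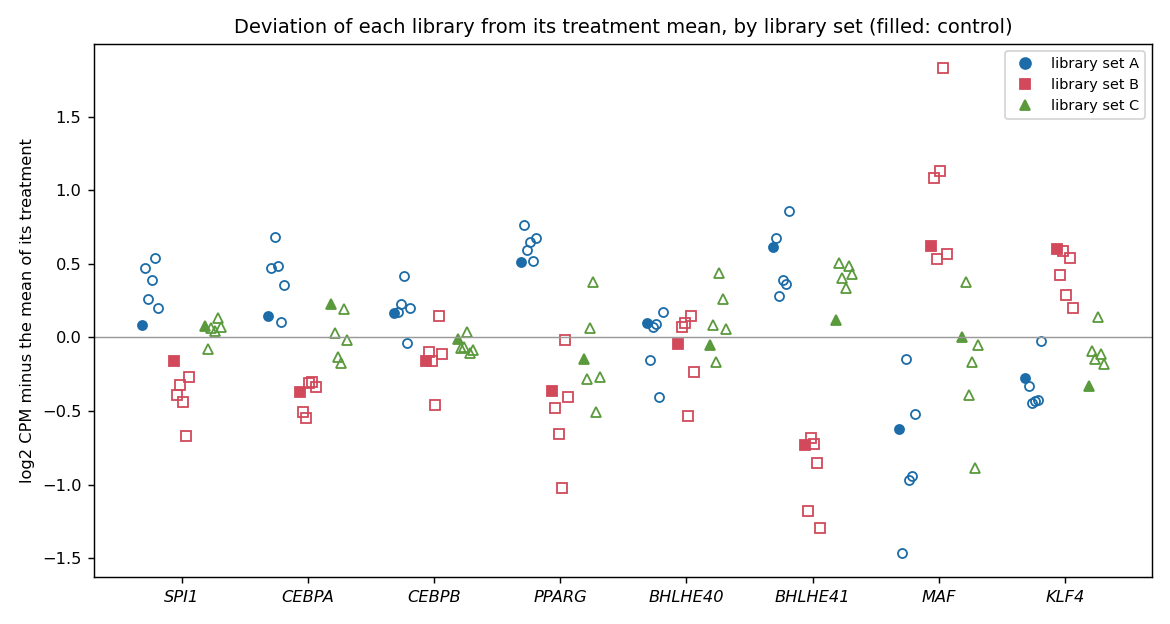
Log2 CPM of each library minus the mean of its treatment, for each factor, by library set, with control libraries filled. Set B lies below 0 for SPI1, CEBPA and BHLHE41 and above 0 for MAF and KLF4 in all 6 treatments.

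Members varied together within treatments and across them in different ways. With the treatment mean removed, SPI1 and MAF had r = -0.95 over the 18 libraries, SPI1 and KLF4 -0.86, CEBPA and BHLHE41 0.77, and CEBPB and PPARG 0.87. With the set mean removed, differences between treatments and between single libraries remain. There CEBPB and BHLHE40 had r = 0.91, CEBPA and CEBPB -0.80, and SPI1 and MAF -0.96. CEBPA and CEBPB had r = 0.70 with the treatment mean removed. Over all 18 libraries that pair had -0.43 with TMM scaling and -0.10 on unscaled totals, and CEBPB and BHLHE40 0.85 and 0.61. These are descriptions of libraries that share pigs or sets, depth and a TMM factor: over all 18 libraries SPI1 and MAF had r = -0.96 with TMM scaling and -0.53 on unscaled totals, and the level of MAF had r = 0.90 with the TMM factor itself, SPI1 -0.82.

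**Figure D5:**
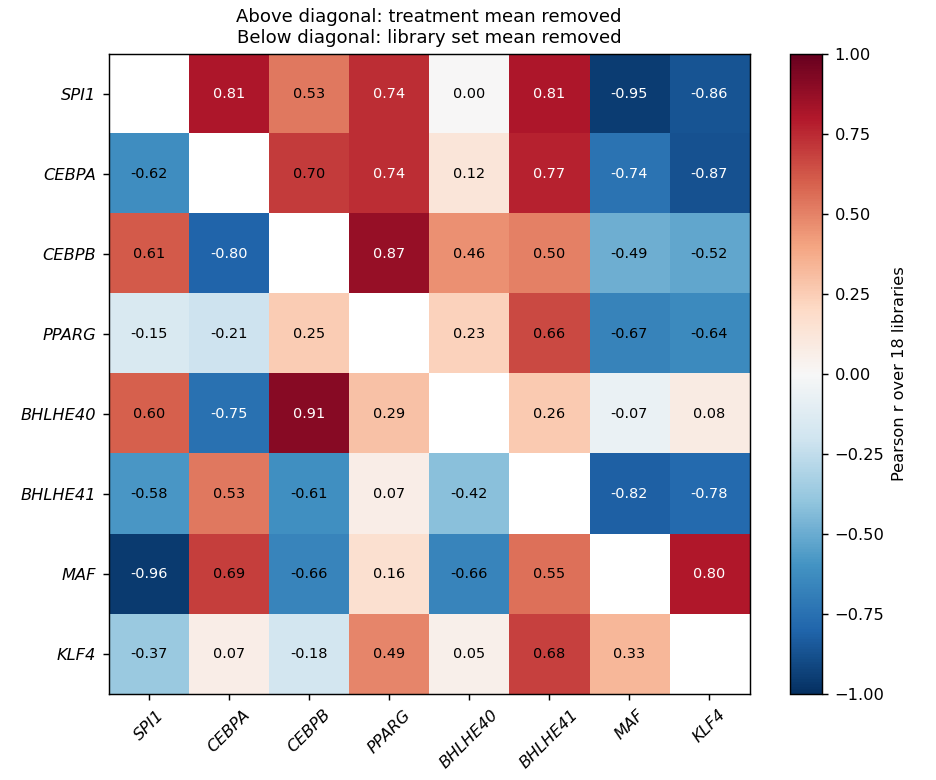
Pearson r between the log2 CPM of the 8 factors over 18 libraries, above the diagonal with the treatment mean removed and below it with the library set mean removed. SPI1 and MAF run opposite on both sides of the diagonal (-0.95 and -0.96), while CEBPB and BHLHE40 go together below the diagonal (0.91).

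The genes most like each member over the 18 libraries were, by Pearson r of log2 CPM, SDF4, FTH1 and CHMP4B for SPI1 (0.971, 0.971 and 0.967), TYSND1, TPCN1 and the fatty acid receptor CD36 for CEBPA (0.949, 0.947 and 0.931), and SUSD6, PHF11 and GGTA1P for CEBPB (0.962, 0.944 and 0.933). For BHLHE40 they were FMNL3, ERRFI1 and NFKB1 (0.969, 0.953 and 0.953), the last the p105 and p50 subunit of NF-kB. For MAF they were SSH1, NSD1 and DIMT1 (0.97, 0.969 and 0.965), for PPARG BTG1, GNB5 and APPL2 (0.892, 0.883 and 0.882), for KLF4 CTPS1, CEP83 and CCDC187 (0.884, 0.879 and 0.877), and for BHLHE41 TMEM225B, B4GALNT1 and the lysosomal glucosidase GAA (0.95, 0.942 and 0.938). CCDC187 had a low level, with a mean of 0.555 CPM. The likeness of SPI1 and MAF is shared with 780 and 880 genes above r = 0.8, against 44 for PPARG.

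Other macrophage and lineage factors, 33 of them tested, are background for the members: 9 rose and 2 fell under poly I:C, 6 and 3 under B. subtilis, 0 and 0 under E. faecium, 9 and 6 with B. subtilis plus poly I:C, and 10 and 3 with E. faecium plus poly I:C. With the set block the counts were 14 and 7, 7 and 4, 0 and 0, 11 and 10, and 14 and 6. Of all genes, 22.4%, 4.37%, 0%, 35.4% and 23.1% passed without the block, in the same order of treatments. With the block 41.6%, 18.3%, 0%, 54.5% and 42.7% did. Whether this list or those below differ from these shares was not tested. The list median was 0.31 log2 units with poly I:C, against -0.01 over all genes. TFEC and MITF, related factors of the MiT family, moved opposite: TFEC rose by 2.51 (SE 0.25, adjusted p = 1.95e-05) and MITF fell by 1.59 (SE 0.21, adjusted p = 0.000124) with poly I:C. BATF3, a factor of dendritic cell lineage, rose by 4.08 with B. subtilis (SE 0.55, adjusted p = 0.00105) and the vitamin D receptor VDR by 2.93 (SE 0.32, adjusted p = 0.000433). ID2 fell by 1.80 with B. subtilis plus poly I:C (SE 0.23, adjusted p = 4.51e-05) and ETV6 rose by 1.20 (SE 0.14, adjusted p = 2.92e-05), which on unscaled totals was 0.40.

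Target genes of the members were taken from lists of textbook roles. Of 14 PPARG targets, 0 rose and 2 fell with poly I:C, namely FABP5 (-1.12, SE 0.28, adjusted p = 0.00995) and PDK4 (-4.3, SE 1.15, adjusted p = 0.0142), with a list median of -0.62. The counts were 0 and 0 with either bacterium alone, 1 and 2 with B. subtilis plus poly I:C (CD36 and PDK4 fell, while ACADVL rose by 0.60 and changed sign on unscaled totals, at -0.23) and 0 and 2 with E. faecium plus poly I:C. With the set block 0 rose and 7 fell with poly I:C, 0 and 5 with B. subtilis, 0 and 0 with E. faecium, 1 and 8 with B. subtilis plus poly I:C, and 0 and 7 with E. faecium plus poly I:C. The fatty acid receptor CD36, for one, fell in that fit by 1.06 with poly I:C (adjusted p = 0.000134) and by 1.07 with B. subtilis (adjusted p = 0.000518). Over all genes the set-block fit called 41.6%, 18.3%, 0%, 54.5% and 42.7%, in either direction, in the same order of treatments.

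Of 14 PU.1 targets, the endotoxin co-receptor CD14 rose by 1.83 with poly I:C (SE 0.47, adjusted p = 0.0103) and the kinase BTK fell by 1.56 (SE 0.37, adjusted p = 0.00661), the only 2 to pass, with a list median of -0.2. With B. subtilis CD14 rose, and BTK and the M-CSF receptor CSF1R (-1.29, SE 0.27, adjusted p = 0.0137) fell. E. faecium called 0 and 0, B. subtilis plus poly I:C 3 and 3, and E. faecium plus poly I:C 1 and 1. With the set block these counts were 3 and 5 with poly I:C, 1 and 4 with B. subtilis, 0 and 0, 4 and 5, and 2 and 4. That fit called 41.6%, 18.3%, 0%, 54.5% and 42.7% of all genes in these treatments, in either direction. Of the C/EBP targets, 5 of 12 rose under poly I:C, 6 under B. subtilis, 0 under E. faecium, 6 with B. subtilis plus poly I:C and 5 with E. faecium plus poly I:C. With the set block 7 rose and 1 fell in each of these treatments but E. faecium, which again had 0 and 0. Those named by the rule were IL1B, CXCL8 and ACSL1 in each of these but B. subtilis plus poly I:C, where SOD2 replaced ACSL1, and CSF3R, which is also on the PU.1 list, fell there. Their list median was 1.46 with poly I:C, where the chemokine CXCL8 rose by 2.59 (SE 0.47, adjusted p = 0.00103). IL1B has a near copy in the pig genome, so its level is uncertain in that respect.

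Self-renewal and cell cycle genes, 13 tested, gave 1 rise and 2 falls with poly I:C: the cycle inhibitor CDKN1A rose by 0.85 (SE 0.27, adjusted p = 0.0314), which on unscaled totals was 0.33 and did not pass, while CDK4 fell by 0.73 (SE 0.18) and E2F1 by 1.77 (SE 0.42). The list median was -0.34. B. subtilis gave 1 rise and 1 fall, E. faecium 0 and 0, and each combined treatment 1 rise and 2 falls. With the set block these counts were 1 and 3 with poly I:C, 1 and 2 with B. subtilis, 0 and 0 with E. faecium, 2 and 4 with B. subtilis plus poly I:C, and 1 and 4 with E. faecium plus poly I:C. Of all genes 41.6%, 18.3%, 0%, 54.5% and 42.7% passed in that fit, in either direction.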

How the data were processed

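Counts per gene were read from the table the authors deposited, in which values are whole numbers. The submitters' processing notes name the build Sscrofa11.1 and DESeq2. Aligner, counter, annotation release and strand setting: not given in the sources used here. Without the strand setting, a gene and an overlapping or antisense partner cannot be separated. There were 0 columns of other series, and 351 rows had no symbol and stayed in the totals. Symbols, chromosomes and positions came from the RefSeq gene table of the same build, matched by gene ID for all 8 members.

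R 4.3.3 and edgeR 4.0.16 were used. Genes were kept by filterByExpr with a minimum count of 10, libraries were scaled by TMM, and 1 quasi-likelihood model with a robust prior and a mean per treatment used all 18 libraries. Tests were two-sided, with Benjamini-Hochberg adjustment over the 13592 genes and a threshold of 0.05. Log2 fold changes carry the SE implied by the F value. The fit was tested on simulated data with 200 changed genes. These data held no pig or set effect and no shift of the median gene, so the test does not bear on the blocks or the scaling. Alternatives were RLE factors, DESeq2 1.42.0, no filter, pig number as a block, library set as a block, only the groups compared, unscaled totals and leaving out libraries; unscaled totals and the leaving out of sets and single libraries were chosen after seeing the data. The library sets were found from the correlations of these libraries, with 1 library of every treatment required in each set. The set block is therefore not independent of the data. The labels give each library a pig number, which is where the pairing comes from, yet same-numbered libraries deviated together (r above 0.1) in 17 of 45 pairs.

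The members and lists were chosen with earlier results of these data known. The result of 1 of the lists of target genes is not reported here. All members are named; of each list, up to 3 genes that rose and 3 that fell with the lowest adjusted p in each comparison with control, and for each member the 3 genes with the highest r. A change of sign of a value called in neither fit is not counted as a reversal.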

Additional observations from a re-analysis of the deposited data

How the results depend on the processing

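With pig number as a block (the pairing of the labels) 4 members were called against control for poly I:C and 2 for B. subtilis. E. faecium had 0, B. subtilis plus poly I:C 5 and E. faecium plus poly I:C 3. Of all 13592 genes, that fit called 2928, 511, 0, 4709 and 2980 in the same order. The interaction of B. subtilis went from 5 genes to 0. The cause was not tested for any change below. With library set as a block the genes called were 5659 for poly I:C, 2492 for B. subtilis, 7408 for B. subtilis plus poly I:C, 5804 with E. faecium plus poly I:C and 505 in the interaction of B. subtilis, and the members 6, 5, 5, 5 and 1. On unscaled totals genes called were 4786, 1047, 7094 and 5046 in these 4 comparisons and 2 in the interaction, members were 2 with B. subtilis plus poly I:C, and CEBPB there was -0.03 instead of 0.75. DESeq2 called 1127 genes and 2 members with B. subtilis, 31 genes with E. faecium, 2 against poly I:C for B. subtilis plus poly I:C and 113 in the interaction. Without the filter, 0 members and 414 genes passed with B. subtilis, and 2 genes in the interaction. RLE factors gave 1 gene there. With only the groups compared, B. subtilis plus poly I:C had 2639 genes and 3 members. E. faecium plus poly I:C had 3573 genes and 4 members, and the interaction 13 genes.

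Leaving out a pig number, a library set or 1 library, genes called ran from 616 to 3723 for poly I:C (members 0 to 4), 0 to 841 for B. subtilis (0 to 1), 0 to 35 for E. faecium, 1311 to 6192 with B. subtilis plus poly I:C (0 to 5), 774 to 3813 with E. faecium plus poly I:C (0 to 3), 0 to 2085 for B. subtilis plus poly I:C against poly I:C (0 to 1) and 0 to 519 in the interaction of B. subtilis. Each of the 11 member calls against control was lost without the libraries of pig 3, and each was lost without library set C. In control, poly I:C and B. subtilis plus poly I:C these are the same libraries. Without pig 1 or pig 2, 8 and 6 calls were lost, and without set A or B 8 and 2. Without pig 3 or set C, fewer of all genes were also called in each treatment with a member call. The highest value against poly I:C came without B. subtilis plus poly I:C 2. Over these 24 leave-outs and 1728 values, 75 calls were lost and 8 gained; over the other 7 settings and 504 values, 13 were lost, 1 of them with a change of sign, and 23 gained.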
